A study of Mus musculus with 84 samples.

Results

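The acid-sensing ion channel genes Asic1, Asic2, Asic3 and Asic4 and the two-pore-domain potassium channel genes Kcnk1, Kcnk2, Kcnk3, Kcnk4, Kcnk10 and Kcnk18 were followed through vagal ganglion sensory neurons of the mouse, sampled singly. These 10 genes were taken by name, not by their values, from a table of 50686 genes. The neurons came from C57BL/6 mice and had been filled from the airways with the retrograde tracer DiI at 2%. They were picked one at a time, and sequencing of their amplified mRNA used a NextSeq 500 with 76-base reads. The labels give 1 group, in which every neuron has the same strain and tracer, and name no age, sex, treatment or animal. Of 84 neurons, the 72 with at least 5000000 counts were used. Levels are counts scaled to a total of 1000000 per neuron (CPM). A gene counts as detected where it reaches 10 CPM.

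Acid-sensing ion channels (ASICs) belong to the degenerin and epithelial sodium channel family. They are trimers that open to let sodium in when protons accumulate outside the cell, and so depolarise sensory endings in acid tissue. Two-pore potassium channels are dimers that carry the background potassium current. They hold the resting potential negative and are tuned by stretch, heat, lipids, calcium signalling or pH, depending on the subunit. In airway vagal afferents both families bear on how readily acid and stretch are turned into impulses.

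Every neuron is its own sample and no label says which neurons share an animal, so neurons were not treated as replicates and no test between classes was made. Shares of neurons carry exact (Clopper-Pearson) 95% binomial intervals, which cover counting error only, and a share of 0 carries the limit that 3 neurons would set. The 72 neurons had between 6732279 and 20668832 counts, with a median of 12860292, so that 10 CPM was 67.3 counts in the shallowest. All 8 sensory neuron markers examined, among them Snap25, were detected in at least 50% of neurons. The summed levels of 5 leukocyte and 4 endothelial markers had medians of 0 CPM, with highest values of 562.1 and 189.4 CPM. Satellite glia markers were present, with a summed level of 1461 CPM at the median and a range of 25.4 to 56800 CPM. Schwann cell markers summed to a median of 707.8 CPM (up to 12282 CPM) and fibroblast markers to 42.4 CPM (up to 874.0 CPM). The number of genes detected per neuron ran from 841 to 8870 with a median of 5855.5, and the 36 neurons at or above that median are called neurons with many genes.

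Promoter sequences are shown for Asic2, Asic3 and Kcnk2, the members whose detection differed most between classes of neurons over all 72. The sequences are from RefSeq (GRCm38.p6), whose table held 8 of the 10 genes and has no entry for Asic4 or Kcnk3. Each stretch is written 5′ to 3′ on the strand of the gene and stops at the base before the first exon that GENCODE M21 places in the window, or at the start. Capitals mark the core letters TGTGGT bound by Runx factors.
Asic3, plus strand, chr5:24413201-24413391: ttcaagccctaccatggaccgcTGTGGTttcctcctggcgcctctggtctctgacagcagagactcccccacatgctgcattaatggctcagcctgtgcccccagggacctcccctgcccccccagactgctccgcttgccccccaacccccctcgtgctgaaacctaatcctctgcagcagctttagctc
Asic2, minus strand, chr11:81968458-81968646: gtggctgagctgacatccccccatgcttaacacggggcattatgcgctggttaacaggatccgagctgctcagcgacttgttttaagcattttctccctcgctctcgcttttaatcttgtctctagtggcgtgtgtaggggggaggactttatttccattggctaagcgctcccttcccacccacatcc
Kcnk2, minus strand, chr1:189343833-189343957: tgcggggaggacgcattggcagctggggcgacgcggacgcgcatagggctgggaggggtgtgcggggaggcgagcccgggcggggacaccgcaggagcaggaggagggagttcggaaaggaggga
Kcnk2, minus strand, chr1:189402274-189402523: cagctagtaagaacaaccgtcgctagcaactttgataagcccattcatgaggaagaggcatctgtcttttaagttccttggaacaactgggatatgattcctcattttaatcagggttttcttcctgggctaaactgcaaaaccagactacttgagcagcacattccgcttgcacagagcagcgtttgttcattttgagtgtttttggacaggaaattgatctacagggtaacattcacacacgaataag

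Of these 4 stretches, that of Asic3 held TGTGGT, with its first base at position -228 from the RefSeq start. On either strand, 14.05% of 32851 RefSeq promoters held these letters in the 250 bases before the start. The other letters searched on both strands were TAATTA (homeodomain core, in 4.84% of promoters), TGACGTCA (cyclic AMP response element, 1.55%) and TATAAA (core of the box that TBP binds, 12.4%). None of these was found in the 4 stretches. RefSeq gives Kcnk2 4 starts that differ in base composition. The 250 bases before each held 28, 27, 2 and 5 CG dinucleotides in order of position, the second and the last of these being the ones shown in part or whole, against a median of 6 over all promoters. A match of letters describes the sequence and does not show that a factor binds there.

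Asic2 was the acid-sensing channel gene found in most neurons. It lies on chromosome 11 (80880169 to 81968457, minus strand, GRCm38) and encodes a subunit that mostly tunes the proton response of channels it joins. It was detected in 32 of 72 neurons (44.4%, interval 32.7 to 56.6%), with a median of 4.20 CPM over all neurons and a highest value of 140.6 CPM. Among the neurons with it, the median was 41.6 CPM. At least 1 count was present in 61 neurons, so many neurons held Asic2 under the threshold.

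Asic3 was the acid-sensing gene with the highest level per length where detected. It lies on chromosome 5 (24413392 to 24417835, plus strand) and encodes the subunit known for sustained currents in sensory neurons at mildly acid pH. It was detected in 16 neurons (22.2%, interval 13.3 to 33.6%), with a median of 73.9 CPM in those and a highest value of 396.3 CPM. Most neurons held little of it: the median over all 72 was 0.0852 CPM, and 32 neurons had no count.

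Asic1 and Asic4 were rarer. Asic1 (chromosome 15, 99670368 to 99701130, plus strand), whose channels open at small drops in pH, was detected in 9 neurons (12.5%, interval 5.88 to 22.4%). A single neuron, AM299, stood at 272.3 CPM and carried 50.8% of all Asic1 CPM, the next at 61.7 CPM. Asic4 (chromosome 1, 75450436 to 75474343, plus strand), which does not form a proton-gated channel by itself, was detected in 0 of 72 neurons, which allows a share of up to 4.17%. It had counts in 1 neuron, at 2.39 CPM.

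Kcnk2 was the most widespread of the 10 genes. It lies on chromosome 1 (189207930 to 189402273, minus strand) and encodes TREK-1, a potassium channel opened by membrane stretch, warmth and lipids. It was detected in 40 of 72 neurons (55.6%, interval 43.4 to 67.3%), with a median of 16.7 CPM over all and 49.6 CPM where detected. One neuron, AM083, reached 2306 CPM and held 44.1% of the summed Kcnk2 level, while the next stood at 357.3 CPM. AM083 had 2231 genes detected, below the median of the neurons.

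The channels closest to Kcnk2 in the family were scarce in these neurons. Kcnk10 (chromosome 12, 98429437 to 98578310, minus strand), which encodes the related TREK-2, was detected in 6 neurons (8.33%, interval 3.12 to 17.3%) and at no more than 23.7 CPM. Kcnk4 (chromosome 19, 6923966 to 6934515, minus strand), which encodes the mechanically gated TRAAK, was detected in 4 neurons (5.56%, interval 1.53 to 13.6%) and at no more than 34.02 CPM. Kcnk4 shares 587 exon bases, 13.1% of its own, with Catsperz on the same strand, and Catsperz was detected in 15 neurons, so the Kcnk4 counts are uncertain. Of the 6 Kcnk10 neurons 5 also had Kcnk2, and of the 4 Kcnk4 neurons 3 did. At least 1 of these 3 genes was found in 42 neurons and all 3 in 1 neuron.

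Kcnk1 and Kcnk18 formed the middle of the range. Kcnk1 (chromosome 8, 125995170 to 126030685, plus strand) encodes TWIK-1, a channel of small current, and was detected in 24 neurons (33.3%, interval 22.7 to 45.4%), up to 126.0 CPM. Kcnk18 (chromosome 19, 59219214 to 59237374, plus strand) encodes TRESK, which the calcium-dependent phosphatase calcineurin activates. It was detected in 21 neurons (29.2%, interval 19.05 to 41.1%), with a median of 33.1 CPM in those. The highest Kcnk18 value, 528.3 CPM, came from AM086, which also had the highest Kcnk4 value, and the next was 106.9 CPM. Kcnk1 and Kcnk18 were detected together in 13 neurons, which is 54.2% of the Kcnk1 neurons and 61.9% of the Kcnk18 neurons.

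Kcnk3 was found in few neurons but at high levels in some. It lies on chromosome 5 (30588170 to 30625271, plus strand) and encodes TASK-1, a background channel that acid outside the cell closes. In its 9 neurons (12.5%, interval 5.88 to 22.4%) Kcnk3 stood at 17.1, 19.99, 34.2, 42.1, 70.8, 76.5, 147.3, 201.6 and 948.6 CPM. The highest of these, in AM288, made up 58.04% of the summed Kcnk3 level, and that neuron had 1289 genes detected. No neuron without the call exceeded 9.09 CPM. Exons of Kcnk3, Kcnk2, Kcnk1 and Asic4 each overlap a gene on the opposite strand, whose reads cannot be told apart if strand was not used in counting, and each of those 4 opposite-strand genes was itself detected in at most 1 neuron.

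**Figure D1:**
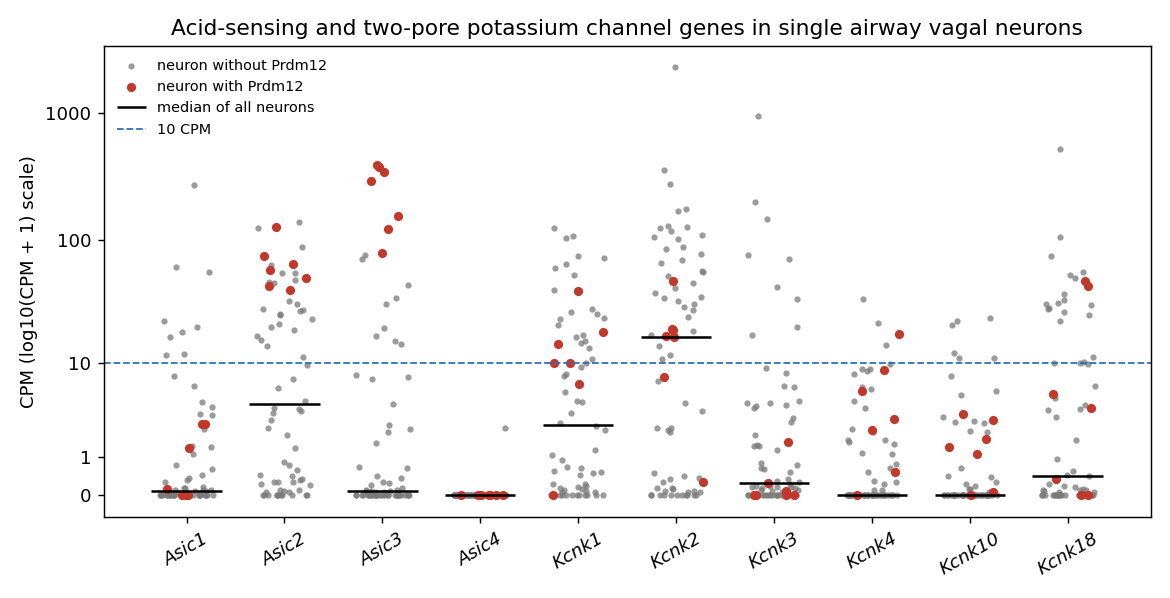
CPM of each of the 10 genes (vertical axis, log10(CPM + 1) scale) in the 72 neurons, with 1 point per neuron, red for the 7 neurons with Prdm12 at 10 CPM or more and grey for the others. Black bars are medians over all neurons and the dashed line is 10 CPM. Kcnk2 has its median above the line at 16.7 CPM, and the red Asic3 points, from 78.9 to 396.3 CPM, lie above all grey ones.

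Levels of different genes were compared per kilobase of exon. Where detected, Asic3 had the highest median at 30.5 CPM per kb, followed by Kcnk3 at 17.8, Kcnk1 at 11.8, Kcnk2 at 10.03, Asic2 at 9.75 and Kcnk18 at 9.54 CPM per kb. Kcnk4 at 4.39, Asic1 at 3.50 and Kcnk10 at 1.86 CPM per kb came last. The Asic3 median pools 7 neurons with Prdm12 and 9 without it, whose medians before scaling by length were 293.8 and 30.8 CPM. The quartiles of neighbours overlapped through most of this order: Asic3 ran from 11.5 to 78.6 CPM per kb and Kcnk3 from 8.60 to 37.04, and Kcnk2 (5.42 to 21.7) overlapped Asic2 (5.83 to 13.6) and Kcnk18 (8.08 to 14.5). The quartiles of Kcnk4, 3.74 to 5.54 CPM per kb, lay below those of Kcnk18, and the quartiles of Kcnk10, 1.29 to 2.50 CPM per kb, lay below those of Asic1, 2.91 to 9.67 CPM per kb.

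Detection in at least 25% of neurons was reached by Asic2, Kcnk1, Kcnk2 and Kcnk18, 4 of the 10 genes. Among the 11351 genes that reached 10 CPM in at least 5 neurons, 74.2% did so. The 8 members in that set, which include those 4, had a median share of 25.7% of neurons, against 47.2% over all genes in it. By the median, the channel genes were thus found in fewer neurons than most genes these neurons express. Kcnk2, at 55.6%, lay above the median of all genes.

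The number of channel genes per neuron followed the number of genes of any kind. In 15 neurons none of the 10 was detected, and these had a median of 2239 genes. In 12 neurons 1 was detected, in 10 neurons 2, in 18 neurons 3, in 12 neurons 4, in 3 neurons 5 and in 2 neurons 6. Neurons with Asic2 had a median of 7894.5 genes and those without it 3491, and for Kcnk2 the medians were 7634.5 and 3361.5. Comparing neurons with many genes with the rest, 53.1% of the 11351 genes were detected in a share at least 40 percentage points higher. The median difference was 22.2 points over the 8 members in that set and 41.7 points over all its genes, so the members differed less than most genes. The lack of a call in a neuron with few genes is therefore weak evidence of absence, and classes of neurons were also compared among neurons with similar gene numbers.

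Both families were commonly found in the same neuron. An Asic gene was detected in 43 neurons and a Kcnk gene in 52, with both in 38, an Asic gene alone in 5 and a Kcnk gene alone in 14. Within the Asic genes, 13 neurons had 2 or more and 1 neuron had Asic1, Asic2 and Asic3 together. Asic2 was the sole Asic gene in 19 neurons, Asic1 in 6 and Asic3 in 5. Within the Kcnk genes, 32 neurons had 2 or more. Asic2 and Kcnk2 shared 26 neurons, which is 81.2% of the Asic2 neurons and 65% of the Kcnk2 neurons, and the Spearman correlation of their CPM over 72 neurons was 0.53. Both also rose and fell with the number of genes detected, with Spearman correlations of 0.63 for Asic2 and 0.61 for Kcnk2.

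**Figure D2:**
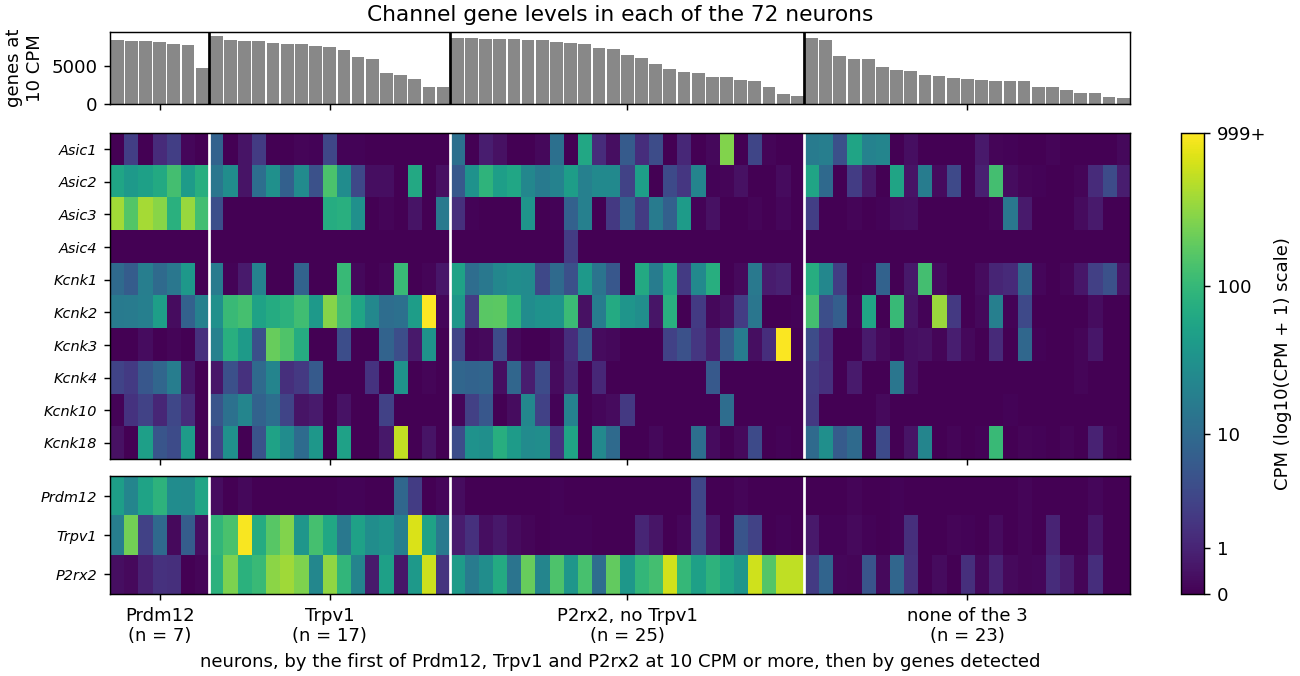
Level of the 10 genes (rows, colour as log10(CPM + 1)) in each of the 72 neurons (columns), grouped by the first of Prdm12, Trpv1 and P2rx2 that reached 10 CPM (7, 17, 25 and 23 neurons) and ordered within a group by the number of genes detected, shown as grey bars above. The 3 lower rows give Prdm12, Trpv1 and P2rx2 themselves. Asic3 is bright in all 7 Prdm12 columns, Kcnk2 in most Trpv1 columns, and the right-hand group has low gene numbers and few channel genes.

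The first comparison of classes used Prdm12, a transcription factor of neural crest neurons that marks the jugular ganglion, and asked which channel genes its 7 neurons carry. Asic3 stood at 78.9, 123.6, 156.1, 293.8, 347.0, 381.1 and 396.3 CPM in these. It was detected in 9 of the other 65 neurons, at 14.4 to 76.6 CPM (median 30.8 CPM). By plain totals the 2 sets of values did not overlap, and the median of the 7 was 9.54 times that of the 9. The gap was narrow, from 76.6 CPM in AM020 to 78.9 CPM in AM228. Under TMM scaling, an alternative to plain totals, these 2 neurons changed order, with factors of 1.72 and 1.87. Of the 11351 genes, 7 (0.0617%) had every Prdm12 neuron above every other neuron by plain totals. Asic3 and Prdm12 itself are among them. That Asic3 and Asic2 were common in Prdm12 neurons was known before this description and is not an independent result.

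Asic2 was also detected in 7 of 7 Prdm12 neurons, at 40.3 to 127.2 CPM (median 57.5 CPM), and in 25 of the 65 others (38.5%). The 7 of 7 for Asic2 and Asic3 depends on the Prdm12 threshold. AM086, with Prdm12 at 9.13 CPM, had 0 CPM of Asic2 and of Asic3. Under TMM scaling 8 neurons had Prdm12, and Asic2 and Asic3 were each found in 7 of 8. The differences were then 48.4 points for Asic2 and 73.4 points for Asic3. When any count was accepted, Asic2 was found in 7 of 7 and 54 of 65, a difference of 16.9 points. Asic2 levels overlapped, since the highest value, 140.6 CPM, was in a neuron without Prdm12. Asic2 and Asic3 were the 2 of 10 genes with a share at least 40 percentage points higher in Prdm12 neurons, a size reached by 18.7% of all genes, and none was lower by as much, as 0.511% of all genes were. Asic1, Kcnk3 and Kcnk10 were detected in 0 of 7 Prdm12 neurons, which allows a share of up to 42.9%. Kcnk2 was found in 5 of 7 and 35 of 65, Kcnk1 in 3 of 7 and 21 of 65, Kcnk18 in 2 of 7 and 19 of 65, and Kcnk4 in 1 of 7 and 3 of 65. The low shares of Kcnk10 and Kcnk4 in Prdm12 neurons hold at 10 CPM only. When any count was accepted, Kcnk10 was found in 6 of 7 and 25 of 65, a difference of 47.3 points. Kcnk4 was then found in 6 of 7 and 28 of 65, a difference of 42.6 points.

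Prdm12 neurons had more genes detected than the others, with medians of 8091 and 4870. Against the 33 other neurons with at least 4722 genes, the fewest in any Prdm12 neuron, Asic3 was found in 7 of 7 and 6 of 33 neurons, a difference of 81.8 percentage points. Asic3 was the 1 member past 40 points here, where 2.79% of genes were higher by that size and 2.04% lower. Asic2 was found in 7 of 7 and 20 of 33, a difference of 39.4 points, just under that size, and it was 21.1 points without AM304, the Prdm12 neuron with the fewest genes, where the gene number asked of the others rises to that of the next Prdm12 neuron. Kcnk2 was found in 5 of 7 and 26 of 33 at 10 CPM. With the same neurons it reached 50 CPM in 0 of 7 and 16 of 33, a difference of -48.5 points. The satellite glia markers summed to a median of 568.4 CPM with Prdm12 and of 696.7 CPM in these 33, and their part in the result was not tested.

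Among the class markers other than Prdm12, the 9 neurons with Asic3 and no Prdm12 differed from the 7 Prdm12 neurons most in P2rx2. This nodose marker, an ATP-gated channel subunit, was found in 7 of the 9 and 0 of the 7, and the nodose marker Hoxb5 in 7 and 1. Further nodose markers were less divided, with Ntrk2 in 7 of 9 and 3 of 7 and Phox2a in 3 and 0. The jugular marker Prrxl1 and the mechanically gated channel gene Piezo2 were each found in 3 of the 9 and 7 of the 7. Other markers were found on both sides: Calca, which encodes the peptide CGRP, in 5 of 9 and 5 of 7, and Trpv1 in 4 and 2. Asic2 was found in 4 of the 9. Asic3 was thus not limited to Prdm12 neurons, but its median level was lower outside them.

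**Figure D3:**
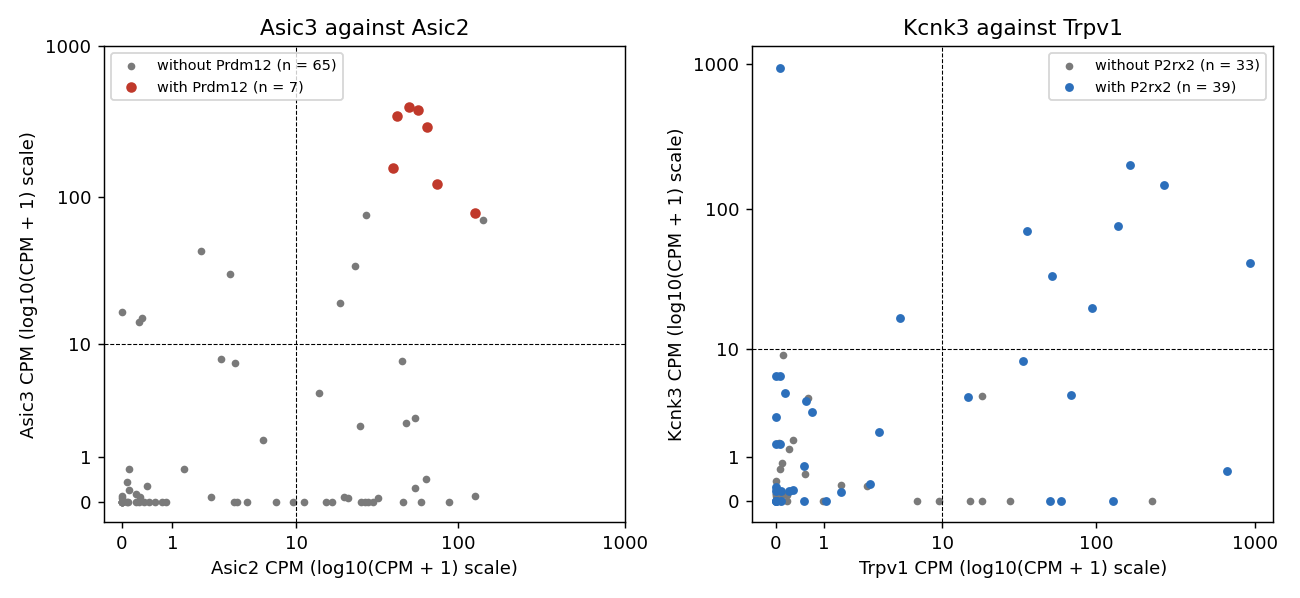
Left, Asic3 against Asic2 in each neuron, with the 7 Prdm12 neurons in red and the 65 others in grey; right, Kcnk3 against Trpv1, with the 39 P2rx2 neurons in blue and the 33 others in grey. All axes are CPM on a log10(CPM + 1) scale and dashed lines mark 10 CPM. The red points form a group high in both Asic genes, and all 9 points above the Kcnk3 line are blue.

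The second comparison used Trpv1, the heat-, capsaicin- and acid-gated channel of nociceptors, found in 19 neurons. Kcnk2 was detected in 18 of these (94.7%), with values from 0.128 to 2306 CPM around a median of 52.02 CPM. In the 53 neurons without Trpv1 it was detected in 22 (41.5%), with a median of 2.40 CPM and overlapping levels. With these classes kept, the difference was 20.8 points when any count was accepted and 33.8 points at 50 CPM. At 10 CPM the difference of 53.2 percentage points was the only one of the 10 to reach 40 points, a size reached upward by 0.987% of all genes and downward by 0.0176%.

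Trpv1 neurons had more genes detected, with medians of 7541 and 4500. Among neurons with many genes, where the medians were 7866 and 8068, Kcnk2 was found in 13 of 13 Trpv1 neurons and 16 of 23 others, a difference of 30.4 points. Kcnk2 levels there ran from 16.5 to 280.5 CPM (median 69.4 CPM) in Trpv1 neurons, and the others had a median of 32.8 CPM. The difference was thus smaller at similar gene numbers, though in the same direction. Kcnk2 was found in 3 of 3, 4 of 4 and 11 of 12 Trpv1 neurons and in 7 of 13, 4 of 7 and 11 of 33 others in the 3 runs of neuron numbers in the labels.

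For Kcnk3 the difference was wider at similar gene numbers. Over all neurons it was found in 7 of 19 Trpv1 neurons and 2 of 53 others, a difference of 33.1 points. Those 2, AM010 and AM288, had 3078 and 1289 genes and were not among the neurons with many genes. AM288 had the highest Kcnk3 level, 948.6 CPM, with Trpv1 at 0.0699 CPM. Among neurons with many genes Kcnk3 was found in 6 of 13 and 0 of 23 (a share of up to 13.04%), a difference of 46.2 points. Of all genes, 1.2% were higher and 1.07% lower by 40 points there. When 1 neuron was left out and all others were kept in place, the Kcnk3 difference was at least 41.7 points. Where the median gene number was also computed anew without AM021, a further neuron entered and it was 38.5 points. The difference held for levels of 10 CPM and not for any count: at least 1 count of Kcnk3 was found in 8 of the 13 and 15 of the 23, a difference of -3.68 points, and 50 CPM was reached in 4 of 13 and 0 of 23. In the same neurons Kcnk1 was found in 3 of 13 and 14 of 23, and Asic1 in 0 of 13 and 7 of 23. Summed satellite glia markers had medians of 1442 CPM and 401.4 CPM on the 2 sides, and their part in the result was not tested.

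All 9 Kcnk3 neurons had P2rx2, which was found in 30 of the 63 others. All 9 also had Hoxb5 and the neurotrophin receptor gene Ntrk2, further nodose markers, but these were common without Kcnk3 too, in 44 and 50 of 63. The nodose marker Phox2a was found in 0 of the 9 and 5 of the 63. The jugular marker Prrxl1 was found in 4 of the 9 and 25 of the 63. Trpa1, the channel for reactive irritants, was found in 8 of the 9 and in 13 of the 72 neurons in all, and Trpv1 was found in 7, all of them with Trpa1. The Kcnk3 neuron without Trpa1, AM010, had 0.178 CPM of it and the lowest Kcnk3 level of the 9, 17.1 CPM. Neither Asic1 nor Asic3 was detected in any Kcnk3 neuron, and the mechanically gated channel gene Piezo2 was detected in 1.

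**Figure D4:**
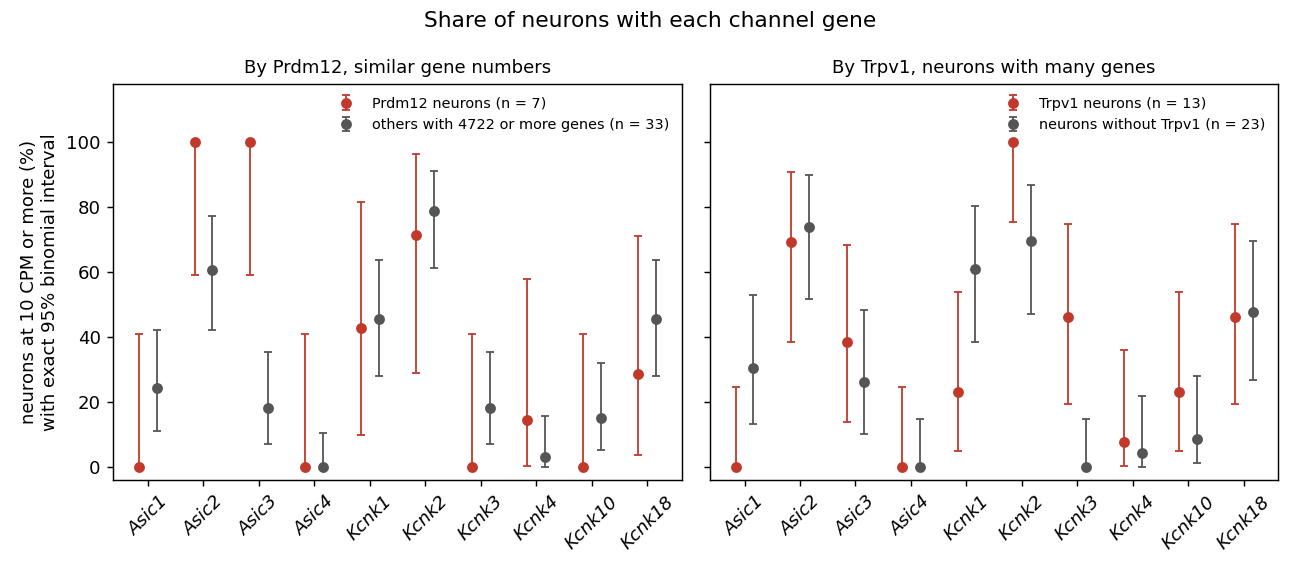
Share of neurons with each gene at 10 CPM or more (vertical axis, percent; bars are exact 95% binomial intervals). Left, 7 Prdm12 neurons (red) and 33 others with at least 4722 genes (grey); right, 13 Trpv1 neurons (red) and 23 without Trpv1 (grey), all with many genes. Asic3 on the left is at 7 of 7 and 6 of 33 neurons, and Kcnk3 on the right at 6 of 13 and 0 of 23.

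The third comparison set the 39 P2rx2 neurons against the 26 neurons with neither P2rx2 nor Prdm12. Kcnk2 was found in 28 of 39 and 7 of 26, a difference of 44.9 points and the only one past 40 points, against 7.27% of genes higher and 0.00881% lower by that size. With the same classes it was 23.1 points when any count was accepted and 25.6 points at 50 CPM, and it was 29.4 points without the 45 neurons with the highest numbers in the labels. Asic2 was found in 21 and 4, Kcnk1 in 17 and 4, and Kcnk18 in 15 and 4. Kcnk3 in 9 and Kcnk10 in 6 P2rx2 neurons had no counterpart among the 26, where 0 allows a share of up to 11.5%. The 2 sides differed in depth of detection, with medians of 7275 and 3361.5 genes, and the part of this in the result was not tested.

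Among neurons with many genes, 25 had P2rx2 and 5 had neither P2rx2 nor Prdm12 at 10 CPM. In these 5, P2rx2 stood at 0.0924, 0.135, 2.19, 5.03 and 8.17 CPM. AM003 was counted among the 25 at 10.7 CPM. Asic2 was found in 19 of 25 and 1 of 5 and Kcnk2 in 23 of 25 and 2 of 5, both over 40 points higher, as were 5.65% of genes. Asic1 was found in 3 of 25 and 4 of 5, lower by that size in P2rx2 neurons, as were 1.4% of genes. Gene numbers still differed between these sides, with medians of 7923 and 6285, as did the summed satellite glia markers, with medians of 1442 and 165.7 CPM, and their part in the result was not tested. The differences were 56 points for Asic2, 52 for Kcnk2 and -68 for Asic1. They rest on 5 neurons and did not hold at other thresholds: with the same neurons at 50 CPM they were -8, 16 and -16 points. Without AM007 and with all other neurons kept in place, the Kcnk2 difference was 42 points and that of Asic1 -63 points, and where the median gene number was computed anew a further neuron entered and they were 32 and -48 points. Under TMM scaling, an alternative to plain totals, the Asic2 difference was 9.09 points and that of Asic1 -20.5 points.

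Among the 9 Asic1 neurons, 7 had Piezo2, against 27 of the 63 without Asic1, and 8 had the tachykinin gene Tac1, against 35 of 63. All 9 had Hoxb5 and Ntrk2, which were also found in 44 and 50 of the 63. Trpv1 was found in 0 of 9 and 19 of 63, and Prdm12 in 0 of 9 and 7 of 63. In the fourth comparison, Asic1 was accordingly found in 7 of 34 Piezo2 neurons and 2 of 38 others. Kcnk3 was found in 1 of 34 and 8 of 38, and Kcnk10 in 0 of 34 (up to 8.82%) and 6 of 38. Of the 10 genes 0 differed by 40 points between Piezo2 neurons and others, a size reached by 0.317% of genes upward and 0.00881% downward. The same held at 10 CPM among neurons with many genes, where 0.696% of genes were higher and 0.687% lower by that size. It did not hold there under each alternative. With these classes kept, 50 CPM of Asic3 was reached in 8 of 20 and 0 of 16, and of Kcnk2 in 5 of 20 and 11 of 16. Without the first run of neuron numbers the difference was 42.9 points for Asic1 and -42.9 for Kcnk18, and without the last it was -40 for Kcnk10.

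The neuron numbers in the labels fall into 3 runs parted by gaps of more than 30, with 16, 11 and 45 of the 72 neurons, and the labels do not say what the runs are. Kcnk1 was found in 9 of 16, 7 of 11 and 8 of 45, and Kcnk18 in 8 of 16, 4 of 11 and 9 of 45. Both were thus found in a smaller share of the last run, whose neurons had a median of 5231 genes against 7639.5 and 3793. Asic3 was found in 5 of 16, 0 of 11 and 11 of 45. The run of 11 held no Prdm12 neuron, and in the other 2 runs Asic3 was found in 2 of 2 and 5 of 5 Prdm12 neurons and in 3 of 14 and 6 of 40 others.

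Genes with the most similar pattern were ranked by Spearman correlation of CPM over the 72 neurons, among 9910 genes detected in at least 10. These values are descriptions, since neurons share differences in gene number. Asic3 was closest to Cadm2 (0.55, and 0.69 in the 36 neurons with many genes), a cell adhesion gene, followed by Gprc5c and Rnf150. Cadm2 also stood on the list of satellite glia markers used here. Summed without it, these markers came to 297.6 CPM with Prdm12, taken at the median. By the same measure the 65 others stood at 1524 CPM, and the 33 of them with at least 4722 genes at 696.4 CPM. The part of glia in the likeness of Asic3 and Cadm2 was not tested. Kcnk3 was closest to Trpa1 (0.55), then to Chrnb4 (0.46), a nicotinic receptor subunit, and Bex1 (0.46), while its correlation with the number of genes was 0.12 over all neurons and 0.31 in those with many genes.

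Kcnk2 was closest to Iqsec3 (0.74, and 0.73 in neurons with many genes), an exchange factor of inhibitory synapses, and its correlation with gene number fell from 0.61 to 0.13 there. Asic2 was closest to Atp9a (0.72), Kcnk18 to Plcb1 (0.72), a phospholipase C, Kcnk1 to Siah2 (0.58) and Asic1 to Racgap1 (0.59). In neurons with many genes other genes came first: Dagla for Asic2 (0.78), Fryl for Kcnk18 (0.73), Akt2 for Kcnk1 (0.75), Cav2 for Asic1 (0.66) and Mctp1 for Kcnk3 (0.73).

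The rest of both families was hardly detected. Of 8 further two-pore channel genes, Kcnk9, Kcnk12 and Kcnk13 were detected in 1 neuron each and Kcnk5, Kcnk6, Kcnk7, Kcnk15 and Kcnk16 in 0 of 72 (up to 4.17%). Of 4 further genes of the sodium channel family, Asic5 was detected in 1 neuron and Scnn1a, Scnn1b and Scnn1g in 0. Among other proton sensors, Trpv1 was detected in 19 neurons, Pacc1, the proton-activated chloride channel, in 11, and the proton-sensing receptor gene Gpr65 in 7. Gpr4, Gpr132, Otop1, Otop2 and Otop3 were not detected at 10 CPM. An Asic gene or Trpv1 was found in 50 of 72 neurons, and 12 of the 19 Trpv1 neurons had an Asic gene.

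Of 8 genes for proteins known to bind these channels, 6 were detected in at least 25% of neurons, and their median share was 50% of neurons, both near the values over all genes given above (74.2% of genes and 47.2% of neurons). S100a10 and Ywhab, whose products bind TASK-1 and bear on its transport to the membrane, were found in 72 of 72 neurons, with medians of 1153 and 1449 CPM. Stoml1, a stomatin-like protein, was found in 47 neurons, Stx8 in 43, Pick1, a scaffold for Asic subunits, in 29, Stom in 28 and the anchoring protein gene Akap5 in 2. Stoml3, a partner in touch neurons, was not detected in any.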

How the data were processed

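The deposited table holds whole-number read counts per gene, which the authors made with featureCounts, per the submitters' processing notes. Not given in the sources used here: the aligner, genome build, annotation, strand setting and featureCounts version. Per the labels' protocols mRNA was amplified, and no molecular identifiers are mentioned, so counts are not independent molecules.

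CPM were computed from each neuron's total over 50686 genes, of which 50376 matched a symbol in GENCODE M21 (GRCm38). That annotation gave positions and exon lengths and need not be the authors' own. The 12 neurons under 5000000 counts, all at or below 3892206, were left out. Classes were set by Prdm12, P2rx2, Trpv1 or Piezo2 at 10 CPM, and a difference of 40 percentage points in the share of neurons is a rule of size, not a test. It was read against 11351 genes at 10 CPM in 5 or more neurons. No p-value was computed, since no label names animals.

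The 10 genes, the lists of related genes and markers and the rules were chosen with earlier results of these data known. Named genes are the members, the related lists, class markers and, for members in 7 or more neurons, the 3 genes with the highest Spearman correlation. Catsperz was named after its values were seen. A withheld item of the related lists is not reported here.

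Alternatives were other thresholds, TMM effective library sizes from edgeR 4.0.16 in R 4.3.3 (no edgeR test was run), thinning to 6732279 counts (seed 1), all 84 neurons, each run of neuron numbers left out, other size rules and no filter on low counts. Leaving out each neuron in turn, and other thresholds for the members with classes kept as at 10 CPM, were added after seeing the data. The share calculation was tested on simulated data. Python 3.11.15, numpy 2.4.6, pandas 2.3.3, scipy 1.17.1 and matplotlib 3.10.9 were used.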

Additional observations from a re-analysis of the deposited data

Results flagged for a closer look

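Signal of 4 channel genes was present in the 12 neurons left out for low totals, at 10 CPM or more and above 3 counts. Asic2 was detected in 1 of them (44.3 CPM, 79 counts), Kcnk2 in 1 (29.3 CPM, 32 counts) and Kcnk1 in 2, the higher at 48.96 CPM from 121 counts. Kcnk10 was detected in 1, AM226, at 875.2 CPM from 1073 counts, while its highest value among the 72 neurons used was 23.7 CPM.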

How the results depend on the processing

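At other thresholds the neurons were classed anew unless said otherwise, so class and call changed together: 7 Prdm12 neurons became 22 at 1 count and 3 at 50 CPM. Of the differences past 40 percentage points, over all neurons and at similar gene numbers, 59 recomputed values stayed past it, 24 fell under it (1 of them to 0) and 4 reversed. The reversals were all in neurons with many genes: at 50 CPM, Asic1 (1.4 points) and Asic2 (-19.6) by P2rx2; with classes kept, Asic2 by P2rx2 at 50 CPM (-8) and Kcnk3 by Trpv1 at 1 count (-3.68). Asic3 by Prdm12 stayed past 40 points under each alternative. At 1 count, 9 members were found in at least 25% of neurons, and 1 at 50 CPM, in place of 4. At 1 count, 1 member differed by Prdm12 and 3 by P2rx2, in place of 2 and 1. By P2rx2 the number was 0 at 50 CPM (also with classes kept), 2 with all 84 neurons, 2 without the second run of neuron numbers, 0 without the last, 2 at a size of 30 points, 0 at 50 points, and 1 to 2 when single neurons were left out. By Trpv1 it was 2 at a size of 30 points and, with classes kept, 0 at 1 count and 0 at 50 CPM. Against others with as many genes, Prdm12 neurons differed in 3 members at 50 CPM (also with classes kept) and in 2 without the first or the second run, in place of 1. At 50 CPM Asic2 and Asic3 were higher and Kcnk2 was lower in Prdm12 neurons. Of 90 member shares recomputed, 24 moved beyond their intervals. No paired analysis was possible because the labels give 1 group with no replicate numbers. Amplified counts without molecular identifiers, a detection limit that varies with gene number, and the absence of animal labels limit every share given.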
